A study of Mus musculus with 6 samples.

Results

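The 4 genes described here encode the fibroblast growth factors (FGFs) made by the apical ectodermal ridge, Fgf8, Fgf9, Fgf4 and Fgf17. They were chosen by name, and all 4 were found among 21523 protein-coding genes placed on the mouse assembly GRCm38.p6. The measurement is chromatin immunoprecipitation followed by sequencing (ChIP-seq) of SP8, a zinc-finger transcription factor. For each gene, every peak of the authors' list for SP8 replicate 1 with its centre inside the gene or within 500 kb of its nearer boundary was taken, 3 of 1451 peaks in all. The chromatin came from forelimb ectoderm of embryos at E10.5, homozygous for a knock-in Sp8 allele carrying a FLAG epitope (labelled Sp8FL KI, background C57BL6J), and the anti-FLAG M2 antibody was used. The ectoderm of 50 forelimb buds was pooled, so ridge and non-ridge surface cells were measured together. The design held 6 libraries: 2 SP8 immunoprecipitations, 2 inputs of the same genotype, and 1 immunoprecipitation of dimethylated histone H3 lysine 4 with 1 input, both labelled WT. The list of replicate 1 is the only one used here. It has no replicate check, its sequencing depth is unknown, and the labelled tissue could not be checked against expression of marker genes.

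The apical ectodermal ridge is the thickened rim of ectoderm at the tip of the limb bud. Its FGFs are secreted, bind heparan sulphate and FGF receptors on the mesenchyme beneath, and keep those cells alive and dividing while the limb grows out. Fgf8 is known to be made along the whole ridge, and Fgf4, Fgf9 and Fgf17 mainly in its posterior part. Mice without Sp8 are known to fail to maintain the ridge and its Fgf8 expression. The question the list can address is which of these ligand genes had an SP8 peak nearby.

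The 4 genes differed widely. Fgf8 had a peak at its boundary, Fgf9 had 2 peaks at neighbouring genes, and Fgf4 and Fgf17 had none within 500 kb. A peak within 500 kb was thus found for 2 of 4, against 51.0% of all protein-coding genes, a share so close to the background that the count itself sets the 4 genes apart from no others. Within 100 kb the count was 2 of 4 with a background of 20.1%. Within 10 kb it was 1 of 4 with a background of 6.48%, and within 1 kb 1 of 4 with 4.78%. These shares count a centre inside a gene as well. The median protein-coding gene had 1 peak within 500 kb (quartiles 0 and 2) and its nearest peak 481 kb from a boundary.

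**Figure D1:**
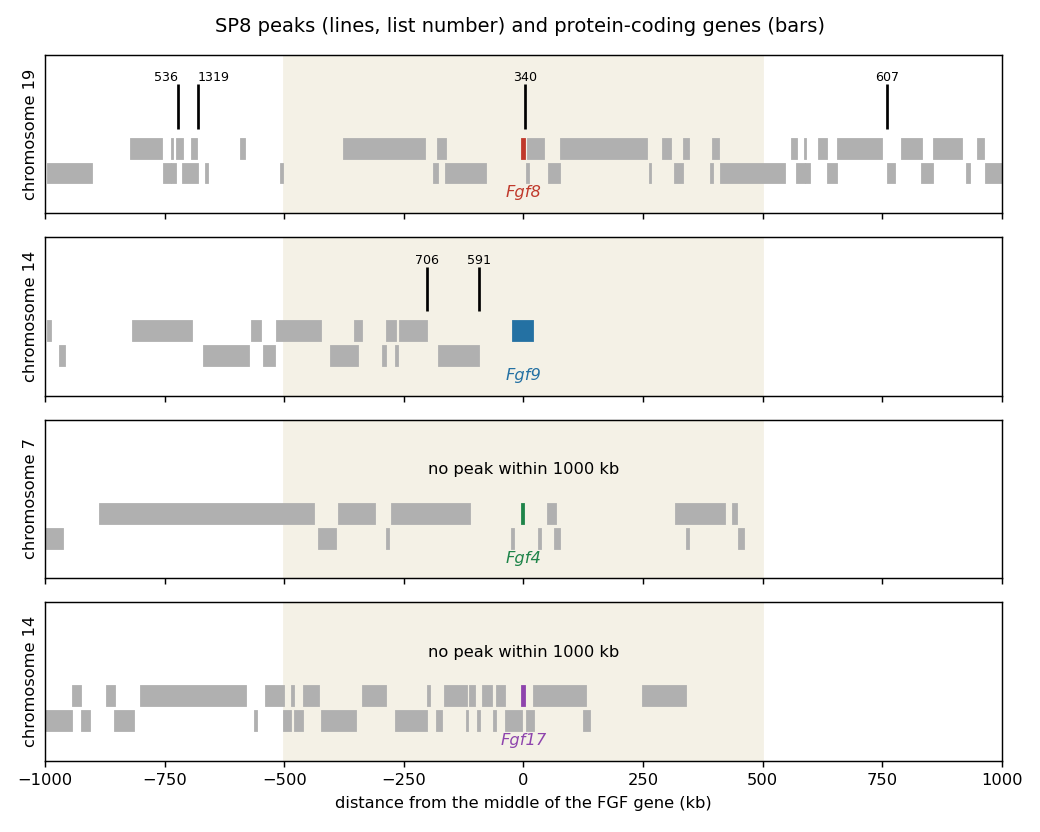
Peaks of SP8 replicate 1 (black lines, with their number in the list) around each of the 4 genes, by distance in kb from the middle of the gene. Bars are protein-coding genes in alternating rows, the coloured bar is the FGF gene, and the shaded band marks 500 kb to each side. A peak stands at the edge of Fgf8, 2 stand to the left of Fgf9, and none stand within 1000 kb of Fgf4 or Fgf17.

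Fgf8 encodes the FGF made throughout the ridge. The gene (identifier 14179 in the RefSeq table) spans chr19:45736491-45742941 on GRCm38.p6. The peak, at chr19:45742891-45743507, was 616 bp wide and had number 340 in the list. It covered the last 51 bp of the gene at its higher coordinate and reached into the sequence beyond, with its centre 0.258 kb outside. Fgf8 is known to be transcribed toward lower coordinates, so this boundary is its 5′ end. No gene of the table contained the centre or lay between it and Fgf8. The next protein-coding gene was Npm3, a nucleoplasmin family member, 4.54 kb from the centre.

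Few genes had a peak as close to a boundary. Over the assembly, 362 protein-coding genes, or 1.68%, had a peak centre at 0.258 kb or less. The peak was also wide: 170 of the 1451 peaks were wider, and the median width was 336 bp. Among the 528 peaks centred within 1 kb of a protein-coding boundary, whose median width was 344.5 bp, 85 were wider.

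The Fgf8 peak stood alone in its neighbourhood. It was the single peak within 500 kb, a number found for 25.1% of protein-coding genes. Since its centre lay in no gene, it follows that none of the 16 other protein-coding genes in that window held a peak centre (background 3.47%). The 16 genes include Fbxw4, an F-box protein gene 76 kb away and 82.3 kb long, and Btrc, 170 kb long, on its far side. The introns of Fbxw4 are known to hold enhancers that drive Fgf8 in the ridge. Toward lower coordinates the next peak was number 1319 (chr19:45058106-45058574, 468 bp wide) inside Pdzd7, 678 kb from Fgf8 and with 7 protein-coding genes between. Toward higher coordinates the next was number 607 (chr19:46499842-46501506, 1664 bp wide), 758 kb away and 0.974 kb from Trim8. Standing alone in this way was common: of the 605 protein-coding genes (2.81%) whose nearer boundary had a centre at 1 kb or less, 199 (32.9%) had no other peak within 500 kb. A site bound below the authors' calling threshold would not appear in the list.

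Fgf9 encodes a ligand that is known to be made in the ridge and in other epithelia and to signal to mesenchyme. The gene (identifier 14180) spans chr14:58070671-58112854. It contained no peak centre, and its nearest peak was 71.8 kb from its lower boundary, and 16.1% of protein-coding genes had one as near. This peak, number 591 (chr14:57998710-57999035, 325 bp wide), lay inside Micu2, which encodes a regulator of the mitochondrial calcium uniporter, 0.423 kb from its boundary. Between it and Fgf9 lay no protein-coding gene, and the noncoding gene 3110083C13Rik and the pseudogene Gm9012. The other peak, number 706 (chr14:57890108-57890430, 322 bp wide), lay inside Zdhhc20, which encodes a protein palmitoyltransferase, 0.562 kb from its boundary and 180 kb from Fgf9, with Micu2 as the only protein-coding gene between.

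Both peaks in the Fgf9 window were therefore centred within 1 kb of the boundary of another gene. Their widths, 325 and 322 bp, were close to the median of 336 bp. Exactly 2 peaks within 500 kb were found for 13.5% of protein-coding genes. Both lay on the lower side of Fgf9. On the higher side, the next peak was 2756 kb away (number 612, 199 bp wide).

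RefSeq promoter windows, from 250 bases before to 50 after the first transcribed base, were matched for 2 of the 4 ligand genes, Fgf9 and Fgf4, and for Zdhhc20 and Micu2. They are shown for Zdhhc20, where a peak within 500 kb of Fgf9 covered the first transcribed base of the window, and for both ligand genes, where no peak lay. Positions are on GRCm38.p6: chr14:57890287-57890586 on the minus strand for Zdhhc20, chr14:58072436-58072735 on the plus strand for Fgf9, and chr7:144861136-144861435 on the plus strand for Fgf4. Capitals mark the 144 bases covered by the peak in Zdhhc20 and the GC boxes in Fgf4, and Fgf9 has none.
Zdhhc20: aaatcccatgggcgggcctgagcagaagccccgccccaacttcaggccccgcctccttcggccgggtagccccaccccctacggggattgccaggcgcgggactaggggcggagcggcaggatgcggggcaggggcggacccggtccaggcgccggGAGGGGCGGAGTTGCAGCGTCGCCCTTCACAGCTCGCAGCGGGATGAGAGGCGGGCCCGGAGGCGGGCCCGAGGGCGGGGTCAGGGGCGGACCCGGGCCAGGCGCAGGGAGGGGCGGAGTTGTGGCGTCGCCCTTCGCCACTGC
Fgf9: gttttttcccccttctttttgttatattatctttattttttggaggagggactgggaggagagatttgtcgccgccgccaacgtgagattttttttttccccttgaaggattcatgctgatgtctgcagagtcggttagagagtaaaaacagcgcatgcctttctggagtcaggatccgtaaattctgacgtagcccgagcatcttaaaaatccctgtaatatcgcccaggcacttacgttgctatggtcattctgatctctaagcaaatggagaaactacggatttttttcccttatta
Fgf4: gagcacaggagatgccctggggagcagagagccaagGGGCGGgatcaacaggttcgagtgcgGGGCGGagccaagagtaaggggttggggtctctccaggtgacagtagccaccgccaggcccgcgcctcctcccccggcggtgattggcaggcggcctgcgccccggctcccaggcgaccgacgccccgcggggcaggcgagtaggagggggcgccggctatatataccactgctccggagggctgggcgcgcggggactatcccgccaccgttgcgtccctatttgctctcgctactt

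The windows were searched on both strands for GGGCGG, the GC box that SP family proteins are known to bind, for CCACCC, the CACCC box, and for TAATTA, a core bound by homeodomain proteins. In these windows no match shared bases with a match of another motif. Zdhhc20 held 8 GC boxes, 4 of them wholly in the part under the peak, and 1 CACCC box outside it. Its peak was centred 67 bp from the first transcribed base of the window, and the window was 76% G or C. That base lies inside the gene span, whose boundary was 0.562 kb from the same centre. Micu2 held 1 GC box, and its peak ended 178 bp short of the window. Fgf4 held 2 GC boxes, starting at -214 and -188 from the first transcribed base, in a window that was 69.7% G or C but 1031 kb from any peak. The Fgf9 window held none of the motifs, at 42.7% G or C. It lies inside the gene span, which begins at chr14:58070671, so the sequence at that boundary was not searched.

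For comparison, a GC box was present in 35.7% of 32851 promoter windows, a CACCC box in 31.5% and TAATTA in 5.29%. Among the 491 windows overlapped by an SP8 peak the shares were 89.2%, 43.2% and 1.63%. G and C content moved with this, with a median of 52.7% over all windows and 68% over those with a peak, and its part in the difference was not tested. The letters in Fgf4 are a sequence match where the list has no peak, and whether SP8 binds them was not tested.

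Fgf4 encodes a ligand of the posterior ridge. The gene (identifier 14175) spans chr7:144861386-144865245, near the end of the chromosome. Its nearest peak was 1031 kb away on the lower side, a distance equalled or undercut by 70.2% of protein-coding genes. That peak, number 1101 (chr7:143829870-143830132, 262 bp wide), lay inside Dhcr7, which encodes an enzyme of cholesterol synthesis. On the higher side there was no peak in the 459 kb up to the end of the last annotated gene. Like 49.0% of protein-coding genes, Fgf4 had no peak within 500 kb. None of the 13 other protein-coding genes in that window held a peak centre (background 3.47%), which is no separate result where the window had no peak. Among the 13 were the FGF genes Fgf3 (18 kb away) and Fgf15 (31.3 kb away) and the cell-cycle gene Ccnd1 (64.7 kb away). These FGF genes had the same nearest peak as Fgf4, at 1009 and 1067 kb.

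Fgf17 encodes a ligand closely related to FGF8. The gene (identifier 14171) spans chr14:70636203-70642268. Its nearest peak was 5292 kb away, and 96.7% of protein-coding genes had one as near or nearer. That peak, number 1406 (chr14:65343786-65343985), had 199 bp, the smallest width in the list, which 63 peaks shared. On the other side the next peak was number 807 (chr14:100284736-100285071, 335 bp wide), 29643 kb away. The window of 500 kb held 22 other protein-coding genes. None contained a peak centre (background 3.47%), which follows from the distance of the nearest peak and is no separate result.

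The stretch without a peak around Fgf17 was 34.94 Mb long and held 138 other protein-coding genes. Among 1427 gaps between neighbouring peaks, with a median of 0.75 Mb, it ranked 2 by length, after a gap of 67.78 Mb on chromosome X, and 1 among the 1415 on autosomes. By the number of protein-coding genes inside it ranked 7. Fgf9, on the same chromosome, lay in a gap of 2.87 Mb, close to the median of 2.93 Mb over protein-coding genes that lie in a gap. Chromosome 14 as a whole held 42 peaks, and 67.4% of its 850 protein-coding genes had none within 500 kb, against 49.0% of all. What underlies the gap was not tested.

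**Figure D2:**
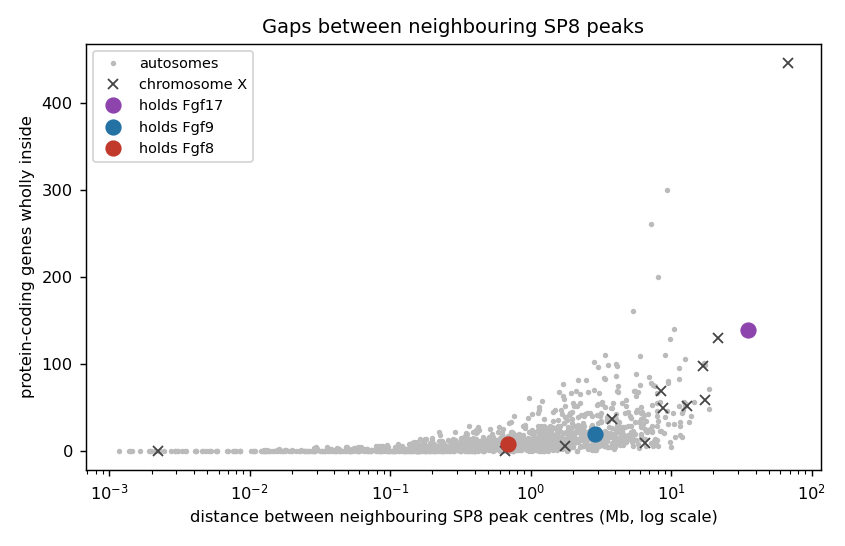
Each point is a gap between 2 neighbouring SP8 peaks, with its length in Mb on a log axis and the number of protein-coding genes wholly inside it. The gap that holds Fgf17 (34.94 Mb) lies to the right of the other autosomal points, the next of which is 18.71 Mb, while those that hold Fgf9 (2.87 Mb) and Fgf8 (0.68 Mb) lie among them. Fgf4 has no peak above it and is not shown.

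Ordered by the nearest peak, the genes ran Fgf8 (0.258 kb), Fgf9 (71.8 kb), Fgf4 (1031 kb) and Fgf17 (5292 kb). Using fewer peaks can only lengthen or keep the distance of any gene, and the distances of Fgf4 and Fgf17 lengthened. With the first 725 peaks of the list they were 9324 and 9767 kb, and with peaks wider than 199 bp that of Fgf17 was 9079 kb. With 1 list, whether this order would return in a second immunoprecipitation was not tested.

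**Figure D3:**
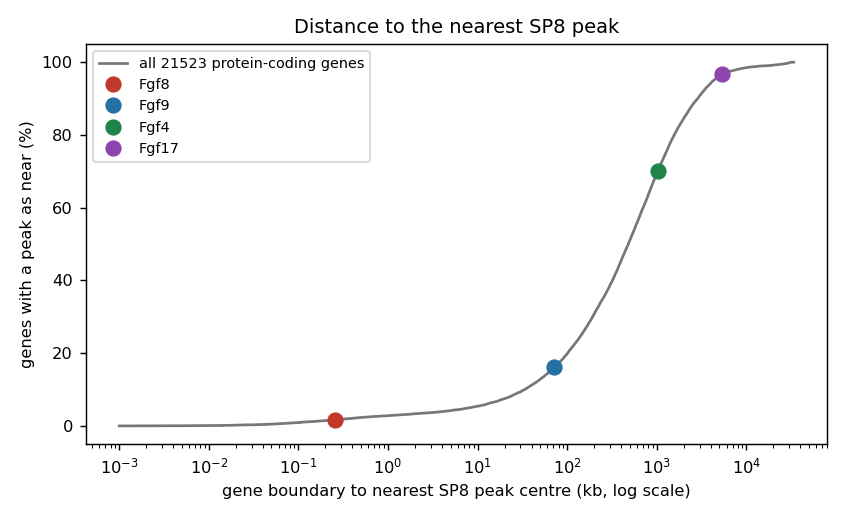
The line gives the share of 21523 protein-coding genes with an SP8 peak centre within a given distance of a boundary (kb, log axis). The coloured points place Fgf8 at 1.68%, Fgf9 at 16.1%, Fgf4 at 70.2% and Fgf17 at 96.7%.

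The other genes of the FGF pathway were set beside the ridge ligands as 34 genes: 18 other ligands, 7 receptors and co-receptors, and 9 feedback inhibitors and targets. A peak within 100 kb was found for 9 of the 34, with the background of 20.1%. By role these were 5 ligands, 2 receptors and 2 feedback genes. Within 10 kb the count was 3 against 6.48%, and within 500 kb it was 20 against 51.0%. The median distance was 374 kb, where all protein-coding genes had 481 kb.

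The genes within 10 kb were one of each role. Spry1, which encodes an intracellular inhibitor of FGF signalling, had a peak centred 0.102 kb outside its boundary (number 645, 351 bp wide), the only gene of the 34 with a peak nearer than that of Fgf8. Fgfrl1, which encodes a receptor-like protein without a kinase domain, had a peak inside it, 0.4 kb from its boundary (number 417, 254 bp wide). Fgf21, an endocrine ligand, had a peak 8.24 kb away (number 492, 333 bp wide) that lay inside Izumo1. The Fgf8 peak was wider than each of these. Etv4, a transcription factor gene that FGF signalling is known to activate, had a peak at 13 kb.

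Ligands and receptors of the exchange between ectoderm and mesenchyme lay at mixed distances. Fgf7, a mesenchymal ligand that signals to epithelia, had its nearest peak 56.7 kb away, and Fgf10, the mesenchymal ligand that signals to the limb ectoderm, had it at 617 kb. Fgfr2, whose ectodermal form receives FGF10, had it at 2286 kb, and Fgfr1, a receptor for ridge FGFs in the mesenchyme, at 1316 kb. Of all protein-coding genes, 49.0% had no peak within 500 kb. Several of the 34 genes had the same nearest peak, such as Fgf1 and Spry4 or Fgf6 and Fgf23, so the genes are not independent.

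**Figure D4:**
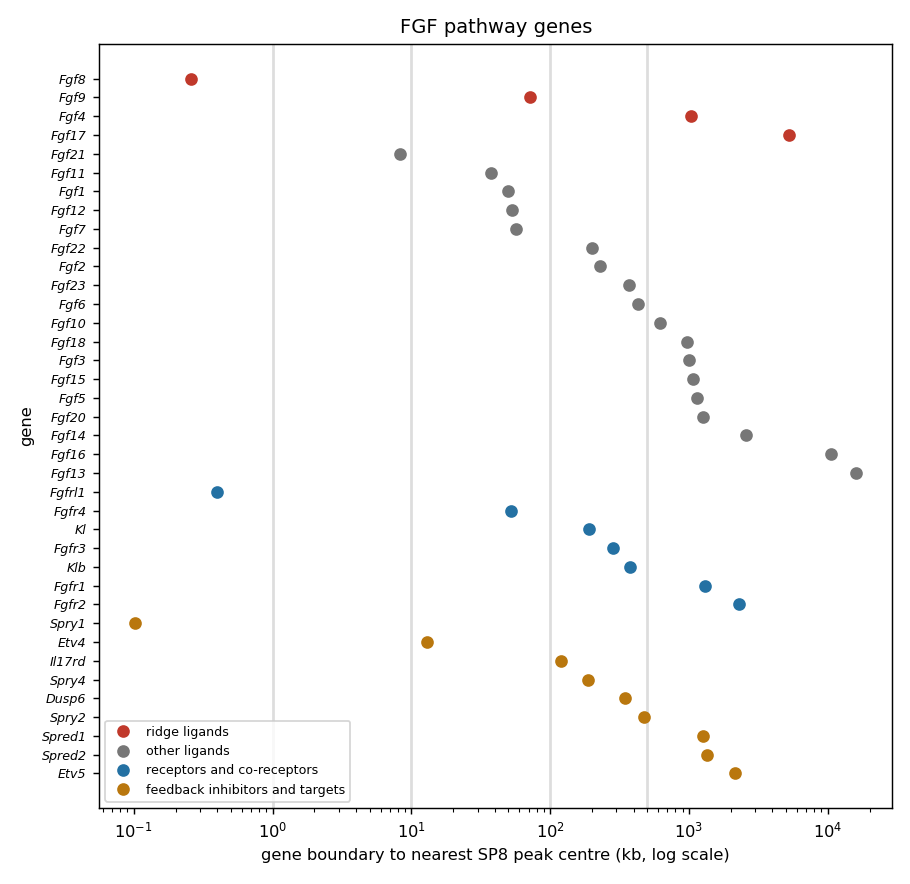
Distance in kb (log axis) from the nearer boundary of each FGF pathway gene to its nearest SP8 peak centre, grouped by role and sorted within each role. Grey lines mark 1, 10, 100 and 500 kb, and Fgf8, Fgfrl1 and Spry1 are the genes left of the line at 1 kb.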

How the data were processed

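SP8 was profiled by ChIP-seq; 1 deposited list of 1451 peaks was used. Its start and end are positions in bp, and its last column is a deposited score with no stated meaning, a number from 1 to 1451 in file order. The authors named the list for replicate 1, a q of 0.1 and a fold change of 3, which could not be checked. Per the submitters' processing notes, FastQC, TopHat2, SAMtools, deepTools and MACS2 were used on GRCm38 (mm10). The control library, any pooling and read depth are not given in the sources used here. Whether starts count from 0 or 1 is not stated, and positions are printed as deposited.

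Genes came from the RefSeq table of GRCm38.p6, which gives no strand. Of 49997 genes, 49214 were used, and the 783 others were on chromosome Y or the mitochondrial genome, unplaced, or started below 3 Mb. The 1447 peaks on chromosomes 1 to 19 and X were placed by their centre. Distances were computed with pandas 2.3.3 in Python 3.11.15 and tested on simulated peaks with known distances. Counts are set against shares over all protein-coding genes, with no p-value, since there is 1 list. The genes, lists and windows were chosen with earlier results of these data known. Named were the 4 genes, every peak within 500 kb of them with the genes containing it or between, and pathway genes with a peak within 10 kb. Pathway genes beyond 10 kb, flanking peaks beyond 500 kb, and the gap around Fgf17 were named after their values were seen. Alternatives changed the window, the peak point, the gene point and the peaks used. Motif searches planned for peaks were made in promoter windows only.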

Additional observations from a re-analysis of the deposited data

How the results depend on the processing

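Over 9 results and 38 alternatives, 31 left the value within 1.5 times for a count, or within a peak's half-width for a distance. The numbers of peaks near Fgf9, Fgf4 and Fgf17 were 2, 0 and 0 under all 5 alternatives. For Fgf4 and Fgf17 this was fixed in advance, since a smaller window or fewer peaks cannot raise a count of 0. Their nearest peaks, at 1031 and 5292 kb, also settle the window of 1000 kb. These unchanged counts of 0 are among the 31 and are no separate support. A window of 1000 kb raised the count at Fgf8 to 4. From the first transcribed base of the Fgf9 promoter window, which lies inside the gene span, the nearest peak was 73.8 kb away. With the first 725 peaks of the list it was 9324 kb from Fgf4 and 9767 kb from Fgf17, and with peaks wider than 199 bp it was 9079 kb from Fgf17; fewer peaks lengthen a distance by construction. Of the 34 other pathway genes, 3 had a peak within 10 kb and 20 within 500 kb, as wider windows take in more. Within 100 kb the count was 8 with the first 725 peaks, where the background was 10.7%. With all peaks it was 9, where the background was 20.1%. No set test was run on these counts. The transcription start of Fgf8 and Fgf17 was not run. No paired analysis was possible because peaks of replicate 1 alone were used, so no replicate could be left out either. Unknown depth limits statements on genes without a peak, which may be bound below the calling threshold.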
